A study of Mus musculus with 22 samples.

Results

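Müller glia span the whole thickness of the retina and keep the fluid around its neurons stable in potassium, water and acidity. The genes described here are the 7 genes of that homeostasis set, out of 44792 genes in the deposited count table: Kcnj10, Kcnj2 and Kcnj16, which encode inwardly rectifying potassium channel subunits, the water channel gene Aqp4, the anchoring gene Dag1, and the carbonic anhydrase genes Car2 and Car14. They were taken by gene symbol, and their level was followed in every RNA library and their methylation in every bisulfite library. All libraries came from C57BL/6 mouse retina. Müller cells carrying the Rlbp1-GFP reporter were sorted by flow cytometry from young mice of 2 to 3 months (Young, 2 RNA libraries), from mice of that age taken 2 days after an injection of NMDA into the eye (NMDA, 3 RNA libraries), and from mice of 1.5 years (Aged, 2 RNA libraries). Retinal progenitor cells were taken from embryos at day 12.5 (RPC, 3 RNA libraries), by a collection method not given in the sources used here. DNA methylation was measured by reduced representation bisulfite sequencing (RRBS), which reads CpG-rich parts of the genome, in 3 libraries of each of the 4 groups. NMDA is an agonist of a class of glutamate receptors and kills inner retinal neurons, so the NMDA cells are Müller glia of an injured retina. The reporter marks cells by the activity of a Müller gene, Rlbp1, whose own RNA differed between the groups.

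In the textbook account, active neurons release potassium, which Müller glia take up and release again into the vitreous and the blood vessels through inwardly rectifying channels, mainly Kir4.1, the product of Kcnj10. Water follows through aquaporin-4, and both proteins are held at the glial endfeet by the dystrophin complex, which dystroglycan (the product of Dag1) ties to the basement membrane. Carbonic anhydrases turn carbon dioxide into bicarbonate and protons: the Car2 product works in the cytosol, and the Car14 product sits in the cell membrane.

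The promoters of Kcnj10, Kcnj2 and Dag1 are printed because the measured methylation lies in or beside them. Each is the 250 bases before the annotated start (RefSeq, GRCm38.p6), 5′ to 3′ on the gene's strand, with capitals at the CpG dinucleotides that RRBS covered in all 12 libraries. Of the 7 genes, 5 had an entry in the promoter table (not Aqp4 or Car2).
Kcnj10, plus strand, chr1:172340960-172341209: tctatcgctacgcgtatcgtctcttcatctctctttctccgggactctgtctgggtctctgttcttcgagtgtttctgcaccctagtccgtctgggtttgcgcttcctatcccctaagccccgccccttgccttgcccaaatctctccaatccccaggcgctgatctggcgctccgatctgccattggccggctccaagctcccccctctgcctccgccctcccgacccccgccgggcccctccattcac
Kcnj2, plus strand, chr11:111065914-111066163: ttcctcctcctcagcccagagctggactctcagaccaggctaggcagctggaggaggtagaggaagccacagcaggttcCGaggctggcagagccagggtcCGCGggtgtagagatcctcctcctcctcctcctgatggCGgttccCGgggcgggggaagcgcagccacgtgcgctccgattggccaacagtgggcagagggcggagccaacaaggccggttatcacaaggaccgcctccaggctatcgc
Dag1, minus strand, chr9:108263959-108264208: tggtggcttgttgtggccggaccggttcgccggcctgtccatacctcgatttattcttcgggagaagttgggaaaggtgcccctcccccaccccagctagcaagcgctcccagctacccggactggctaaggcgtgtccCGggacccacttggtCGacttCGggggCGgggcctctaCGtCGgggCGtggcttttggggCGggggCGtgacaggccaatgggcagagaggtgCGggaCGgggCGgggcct
These 250 bases hold 17 CpGs in Kcnj10, 14 in Kcnj2 and 21 in Dag1, against a median of 6 over 27025 promoters of the same length. The capitals mark 5 CpGs of Kcnj2 and 12 of Dag1, and Kcnj10 has none. Measured Kcnj2 CpGs lie in the middle of its window and measured Dag1 CpGs in the part nearest the start.

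By RefSeq GRCm38.p6, genes lie at chromosome 1, 172341210 to 172374085 for Kcnj10, at chromosome 11, 111066164 to 111076825 for Kcnj2, at chromosome 11, 110968033 to 111027968 for Kcnj16, at chromosome 9, 108204861 to 108263977 for Dag1, at chromosome 3, 14886269 to 14900770 for Car2, and at chromosome 3, 95897768 to 95905117 for Car14, whose span overlaps Aph1a. Aqp4 lies on chromosome 18 and its span overlaps the noncoding gene A830021F12Rik. The annotation used here lists gene spans without exons, so levels of different genes could not be set against each other per length, and a position inside a gene is given by its distance from the start.

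RNA libraries held 10149390 to 36486072 counts, and values below are CPM, a gene's counts scaled to a common library total, with TMM factors. Rlbp1, which encodes the retinoid-binding protein that the reporter follows, stood at 3211 to 4198 CPM in young, 682 to 1375 in NMDA, 3115 to 3458 in aged and 2.42 to 6.20 in RPC libraries, and its NMDA decrease passed the test (edgeR adjusted p 0.0054). The 14 Müller marker genes summed to 54293 to 65794 CPM in young, 22229.7 to 29014 in NMDA, 59306 to 59472 in aged and 2896 to 3509 in RPC libraries. Gfap, the intermediate filament gene of reactive glia, rose from 17.3 and 43.6 CPM in young to 897 to 1236 CPM in NMDA libraries (edgeR adjusted p 7.56e-05). The 16 photoreceptor markers summed to 10225 to 15478 CPM in young, 8299 to 13612 in NMDA, 6759 to 10327 in aged and 26.8 to 35.0 in RPC libraries. The 12 microglia markers summed to 13.0 and 89.8 CPM in young 340, 3602 and 744 in NMDA replicates 1 to 3, 97.8 and 111 in aged and 54.3 to 67.2 in RPC libraries, with Trem2, Aif1 and Ptprc at 0 in both young libraries. Other marker lists were counted too. Of all 18931 genes tested, 30.6% were called higher with NMDA (14.3% lower). With age these shares were 21.1% and 5.85%. Of 10 vascular markers, 6 were called higher and 1 lower (Pdgfrb) with NMDA, and 5 higher with age. Their sum stayed at 3010 to 3119 CPM in young, 2572 to 3612 in NMDA and 2953 to 3075 in aged libraries. Of these 10 genes, 6 were at 0 in both young libraries. Of 16 inner neuron markers tested, 6 were higher with NMDA and 6 with age, and their sums were 124 and 132 CPM in young, 245 to 428 in NMDA and 175 and 214 in aged libraries. Of 7 pigment cell markers tested, 2 were higher with NMDA and 3 with age, with sums of 8.92 and 34.7, 9.80 to 14.5 and 18.3 to 22.6 CPM. Of 6 lens markers 2 were higher with NMDA and 0 with age. Their sums were 0 and 2.38 CPM in young, 40.9, 1154 and 62.5 in NMDA replicates 1 to 3, and 47.7 and 0.838 in aged libraries. Of 7 astrocyte and optic nerve markers tested, Gfap among them, 4 were higher with NMDA and 2 with age. Their sums were 212 and 251 CPM in young, 1343 to 1652 in NMDA, 255 and 285 in aged and 36.9 to 46.9 in RPC libraries. The part of these cell types in the results was not tested. Young libraries had a count in 13913 and 14919 genes, all other libraries in 20920 to 23618, and the young pair correlated at 0.885 across genes, against 0.962 to 0.995 for other pairs. Xist, a transcript of female cells, measured 2700 and 0.477 CPM in young and 5.46, 2260 and 2110 in NMDA replicates 1 to 3. It measured 0.766 and 0.0335 CPM in aged and 814 to 2520 in RPC libraries. The part of sex in the results was not tested. A bulk library cannot tell fewer cells of a type from less RNA per cell. Where labels call libraries replicates without naming separate animals, p-values measure the spread between these libraries only.

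**Figure D1:**
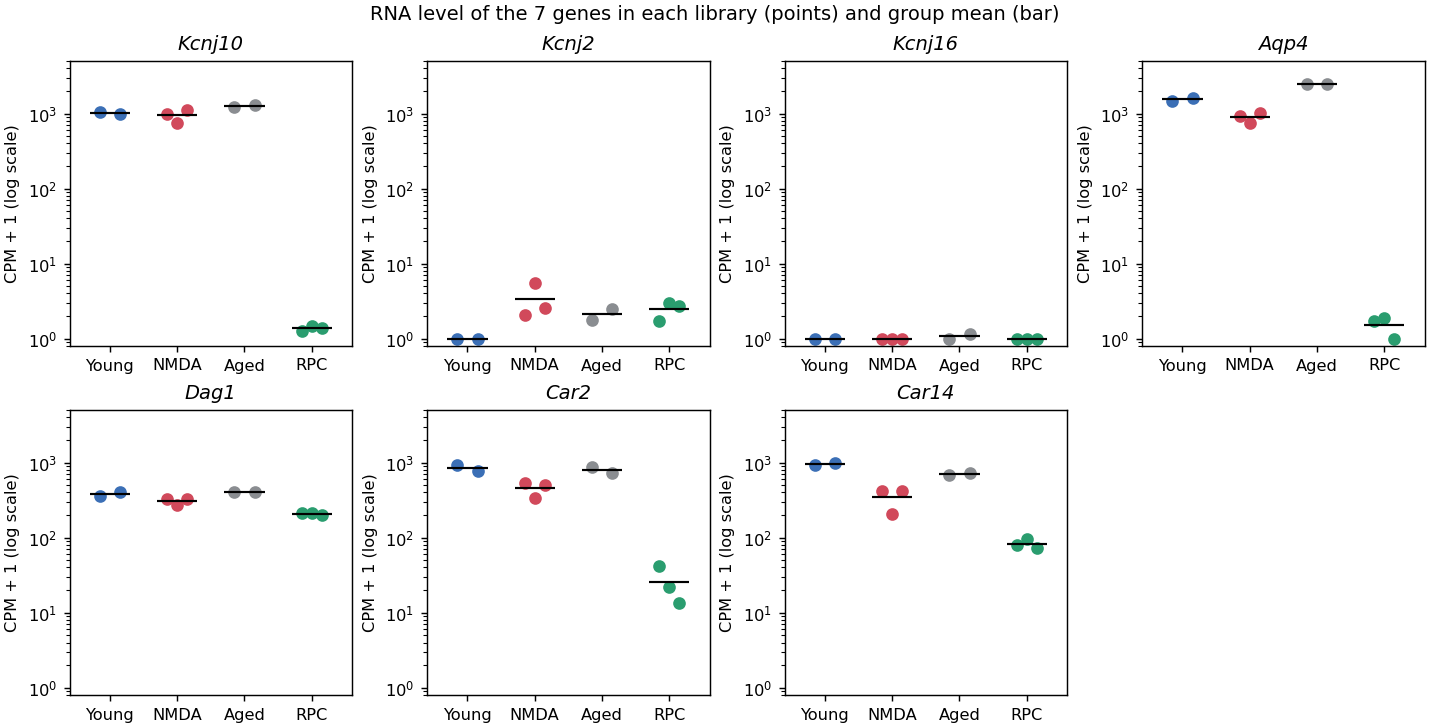
RNA level of the 7 genes as CPM + 1 on a log axis, 1 point per library and a bar at the group mean, in Young (2 libraries), NMDA (3), Aged (2) and RPC (3). Kcnj10 and Aqp4 sit between 751 and 2491 CPM in the Müller groups and under 1 CPM in RPC libraries. Kcnj16 is at 0 in 9 of the 10 libraries.

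Kcnj10 was high in all Müller groups and close to 0 in progenitors. It measured 1040.5 and 975 CPM in young, 984, 751 and 1128 in NMDA, 1214 and 1300.2 in aged, and 0.253, 0.472 and 0.390 CPM in RPC libraries (4, 6 and 5 counts). The young and NMDA libraries overlapped. The fitted NMDA change against young was -0.08 on the log2 scale, with a 95% interval from -0.47 to 0.31 (edgeR quasi-likelihood, Benjamini-Hochberg adjusted p 0.74). Aged libraries lay above the young pair, at a change of 0.32 with an interval from -0.11 to 0.75 (adjusted p 0.26). In progenitors it fell by 11.41 on the log2 scale (SE 0.27, adjusted p 5.27e-08). The order of the means was aged, young, NMDA, RPC. NMDA and aged libraries did not overlap, but their difference of -0.40 (interval -0.79 to -0.01) did not pass (adjusted p 0.14), so RPC was the 1 step of that order that passed.

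Kcnj2, which encodes the strong rectifier Kir2.1, was measured at low level and had no count in either young library. It had 16, 75 and 26 counts in NMDA libraries (1.05, 4.45 and 1.54 CPM), 25 and 44 in aged (0.766 and 1.48 CPM) and 11, 25 and 22 in RPC libraries (0.696, 1.97 and 1.72 CPM). Against 3 counts over both young libraries, it was at least 20.6-fold higher in NMDA, 9.52-fold higher in aged and 12.1-fold higher in RPC cells (adjusted p 0.0038, 0.013 and 0.0035). In a fit of young and aged libraries alone the aged difference did not pass (adjusted p 0.073). The NMDA, aged and RPC ranges overlapped, and no difference between these groups passed (adjusted p 0.43, 0.72 and 0.45). With 0 counts in young, Kcnj2 passed the low-count filter only through the other groups, so it could be called only higher than young. A young value of 0 was common at this level. Among 3067 genes whose mean outside the young group was within a factor of 2 of Kcnj2, 42.9% had 0 counts in both young libraries. The share with 0 in all 3 RPC libraries was 4.7%. The mean that chose these genes included the RPC libraries and left out the young ones. A 0 in RPC was thereby made rarer, so these shares cannot be compared directly. The highest Kcnj2 value, in NMDA replicate 2, came from the library with the highest microglia marker sum, and its nearest genes were the leukocyte genes Coro1a, Fermt3 and Pik3cd (below). In aged and RPC libraries, where Kcnj2 was also called, the microglia sums were 97.8 and 111 CPM and 54.3 to 67.2 CPM, near that of young replicate 2 (89.8 CPM), which had no Kcnj2 count. The part of RNA from microglia, vascular or other cells in the Kcnj2 values was not tested.

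Kcnj16, which encodes Kir5.1, a subunit that joins Kir4.1 in mixed channels, had 5 counts in aged replicate 2 (0.168 CPM) and 0 in the other 9 libraries. It did not pass the low-count filter and was not tested. A count of 0 allows up to 0.116 CPM over the pooled young libraries, 0.0613 over the NMDA libraries and 0.0726 over the RPC libraries (3 counts each, counting error only).

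Aqp4 measured 1466 and 1619 CPM in young, 925, 752 and 1015 in NMDA, 2491 and 2462 in aged, and 0.696, 0.865 and 0 CPM in RPC libraries. Every NMDA library was below both young libraries and every aged library was above them. The NMDA change against young was -0.78 (95% interval -1.51 to -0.05, adjusted p 0.077) and did not pass. It passed in 4 of 13 alternative fits, with adjusted p from 1.04e-05 to 0.22. The aged change was 0.68 (interval -0.13 to 1.49, adjusted p 0.20). The direct contrast of NMDA with aged passed, where Aqp4 fell by 1.46 on the log2 scale (SE 0.32, adjusted p 0.014), 2.76-fold. In progenitors it fell by 11.49 against young cells (SE 0.50, adjusted p 3.66e-07).

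Dag1 was the member nearest to even across groups. It measured 352.8 and 401 CPM in young, 326, 272 and 322 in NMDA, 402 and 408 in aged, and 210.4, 212 and 201 CPM in RPC libraries. No RPC library overlapped with another group, and the NMDA libraries lay below both young ones. In RPC cells Dag1 fell by 0.86 on the log2 scale (SE 0.11, adjusted p 0.00015), 1.81-fold. The NMDA decrease of 0.30 (SE 0.11) passed narrowly at an adjusted p of 0.049 and did not pass in 8 of 13 alternative fits, whose adjusted p ran from 0.0044 to 0.19. It did not pass without any 1 of the NMDA libraries, nor without young replicate 2 (-0.20, adjusted p 0.18). The aged change was 0.11 (interval -0.16 to 0.37, adjusted p 0.57).

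Car2 measured 937 and 782 CPM in young, 526, 334 and 495 in NMDA, 868 and 718 in aged, and 40.7, 21.2 and 12.6 CPM in RPC libraries. All NMDA libraries were below all young and aged libraries, and the young and aged libraries overlapped. The NMDA change was -0.93 (95% interval -1.83 to -0.03, adjusted p 0.087) and the aged change -0.12 (interval -1.11 to 0.88, adjusted p 0.90). In RPC cells Car2 fell by 5.11 on the log2 scale (SE 0.44, adjusted p 1.74e-05), 34.5-fold. Car2 is also an abundant enzyme of red blood cells. The summed level of 7 blood markers ran 1866, 488 and 287 CPM in RPC replicates 1 to 3, in the order of the Car2 values, and 0.191 to 11.6 CPM in other libraries; the part of blood cell RNA in RPC Car2 was not tested.

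Car14 was the member that fell furthest with NMDA. It measured 932 and 1000.3 CPM in young, 423, 204 and 415 in NMDA, 688 and 729 in aged, and 78.7, 95.3 and 71.8 CPM in RPC libraries. The 4 groups did not overlap with each other, in the order young, aged, NMDA, RPC. Against young cells, Car14 in NMDA cells fell by 1.47 (SE 0.28, adjusted p 0.0031), 2.78-fold, and passed in all 13 alternative fits. Its span overlaps Aph1a, a subunit gene of gamma-secretase, which measured 12.1 and 14.7 CPM in young and 31.0 to 45.3 in NMDA libraries; how reads in the overlap were counted was not stated. The aged change of -0.45 (interval -1.15 to 0.25, adjusted p 0.33) did not pass. In RPC cells it fell by 3.56 against young (SE 0.29, adjusted p 1.2e-05), 11.8-fold.

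With NMDA, 3 of 6 members tested passed at an adjusted p under 0.05 (Kcnj2 higher, Dag1 and Car14 lower), against 44.9% of all 18931 genes tested (30.6% higher, 14.3% lower). The libraries of 5 of 6 did not overlap between the groups, 1 higher and 4 lower, against 58.5% of all genes (39.9% higher, 18.6% lower). Of the 3 members that did not pass, Aqp4 and Car2 had an unadjusted p under 0.05 and Kcnj10 did not. NMDA replicate 2 had the lowest NMDA value of Kcnj10, Aqp4, Dag1, Car2 and Car14. It also had the lowest Müller marker sum of the NMDA libraries (22229.7 CPM) and the highest microglia (3602 CPM) and lens (1154 CPM) sums. The part of its cell content in these decreases was not tested. The median over the 6 tested members was -0.54, against 0.26 over all genes; Kcnj2 lies above the median at any positive value. Under upper-quartile scaling and under DESeq2, 5 members passed. Upper-quartile scaling moved the median of all genes to 0.04, and all calls from 5795 higher and 2702 lower to 5094 and 3825.

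With age, 1 of 6 members passed (Kcnj2), against 27.0% of all genes (21.1% higher, 5.85% lower). The libraries of 5 of 6 did not overlap, 4 higher and 1 lower, against 52.7% of all genes (36.7% higher, 16.1% lower). Among the other 5 members 0 had an unadjusted p under 0.05 with edgeR, and DESeq2 called Aqp4 higher (adjusted p 0.0051, against 0.0051 to 0.43 over its alternatives). The member median was 0.21 against 0.13. Upper-quartile scaling moved that median of all genes to 0 and the calls from 3997 higher and 1108 lower to 3527 and 1848. In progenitors against young cells all 6 tested members passed, 5 lower and Kcnj2 higher, against 60.8% of all genes (35.9% higher, 24.9% lower), and the libraries of 6 of 6 did not overlap, against 69.8% (44.0% higher, 25.9% lower). The member median was -4.33 against 0.30.

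**Figure D2:**
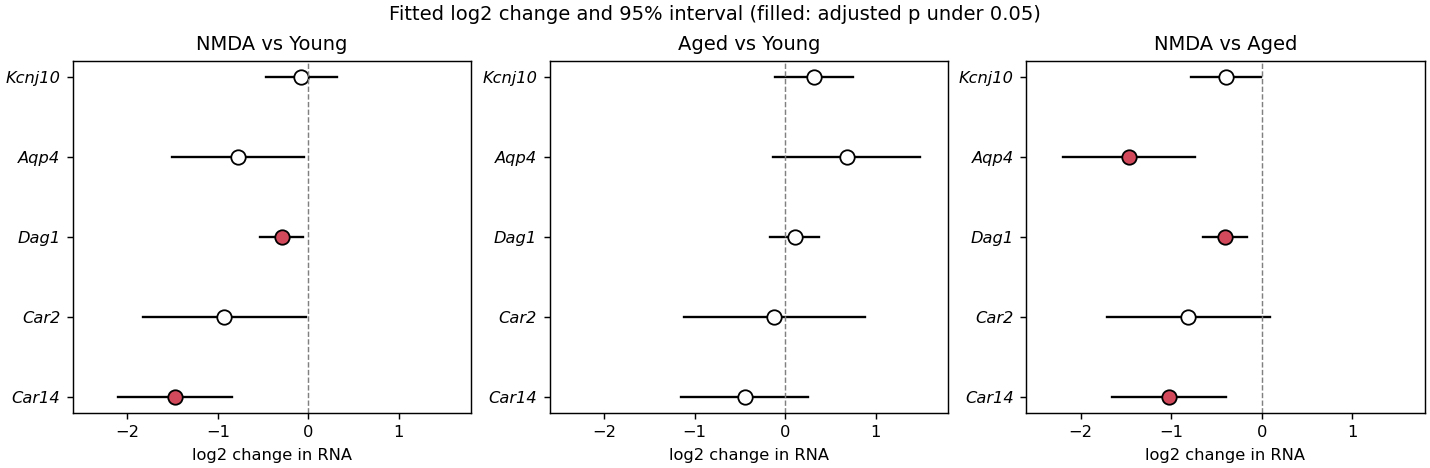
Fitted log2 change (point) and 95% interval (line) of 5 genes for NMDA against Young, Aged against Young and NMDA against Aged; filled points passed an adjusted p under 0.05. Kcnj2 (no counts in young) and Kcnj16 (not tested) are not shown. Car14 lies at -1.47 and -1.03 in the NMDA panels, while the Kcnj10 intervals in the panels against Young include 0.

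NMDA and aged cells were also set against each other. Aqp4, Dag1 (-0.40, SE 0.11, adjusted p 0.030) and Car14 (-1.03, SE 0.28, adjusted p 0.032) were lower and passed, 3 of 6 members, against 20.3% of all genes (10.5% higher, 9.8% lower). The libraries of 5 members did not overlap, all lower, against 63.6% (32.5% higher, 31.1% lower). Without aged replicate 1, or without aged replicate 2, edgeR called 0 members; the lone aged library was then taken to vary like the other groups. The adjusted p over the 13 alternative fits ran from 2.15e-15 to 0.096 for Aqp4, from 0.0014 to 0.16 for Dag1 and from 0.0028 to 0.16 for Car14. Progenitors were lower than aged cells and lower than NMDA cells in Kcnj10, Aqp4, Dag1, Car2 and Car14, 5 of 6 members in each contrast, against 55.4% (26.3% higher, 29.0% lower) and 57.7% (25.8% higher, 31.9% lower) of all genes. Those 5 members also did not overlap between the groups, against 84.2% of all genes for aged (42.5% higher, 41.7% lower) and 80.2% for NMDA cells (38.9% higher, 41.2% lower). These contrasts share libraries with those above.

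The genes whose levels ran most like a member were found by Pearson's r of log2(CPM + 1) over 10 libraries, which share 4 groups and their depth, among 11090 genes averaging 10 CPM or more. For Kcnj10 they were Timp2 (0.9993), Cav1 (0.9992) and Ddx60 (0.9988). For Aqp4 they included Scara3 (0.9989) and Adora1 (0.9989). Dag1 ran most like St5 (0.9955), LOC102631907 (0.9949) and Utp14b (0.993), Car2 most like Etnppl (0.9957), Rlbp1 (0.9945) and Tmed4 (0.9938), and Car14 most like Wscd1 (0.994), Acacb (0.9939) and Gm20743 (0.9937). For Kcnj2 the highest were Coro1a (0.9205), Fermt3 (0.9116) and Pik3cd (0.909). Among the members, Kcnj10 and Aqp4 ran together most closely (0.995), and Kcnj2 correlated with no other member above -0.186.

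Wider lists of the same functions were counted in the same fit. A gene at 0 in both young libraries passed the low-count filter only through other groups, so it could be called only higher than young. This held for Kcnj6, Kcnj13, Aqp2, Car6 and Dmd, as for Kcnj2, and nearly so for Kcnj3, with 3 young counts. Of 12 other inwardly rectifying potassium channel genes, 8 were tested, with a median of 2.65 with NMDA and 1.21 in RPC cells. These medians were 2.11 and 0.27 with genes at 3 or fewer counts set at their bound or count ratio. Their summed level went the other way. The 12 genes summed to 147 and 138 CPM in young, 56.7 to 110 in NMDA, 116 and 90.8 in aged and 31.1 to 33.2 in RPC libraries. With NMDA, Kcnj3, Kcnj6 and Kcnj13 passed as higher and Kcnj11 as lower; Kcnj11, a subunit of ATP-sensitive channels, fell from 15.6 and 12.4 CPM in young to 3.35, 1.13 and 2.25 in NMDA (adjusted p 0.029). Kcnj13, at 0 in both young libraries and overlapped by another gene, stood at 0.771 to 2.07 CPM in NMDA. In RPC cells Kcnj12, Kcnj13 and Kcnj3 were higher and Kcnj11 and Kcnj14 lower.

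Of 11 other aquaporin genes 7 were tested, with a median of 1.85 with NMDA (0.85 with such genes at their bound) and 0.00 in RPC cells. In RPC cells 1 was called higher and 3 lower. The 11 genes summed to 57.4 and 52.8 CPM in young, 77.2 to 131 in NMDA, 83.0 and 70.9 in aged and 3.82 to 10.8 in RPC libraries. Aqp1 was lower in RPC cells, at 1.01, 2.12 and 1.09 CPM against 25.01 and 21.7 in young (adjusted p 0.00013). It measured 23.3, 68.1 and 35.3 CPM in NMDA libraries and did not pass there (0.85, interval -0.18 to 1.88, adjusted p 0.16). Aqp5 was at 0 in all 3 RPC libraries, at least 344-fold lower than in young, where it measured 32.4 and 14.1 CPM. Aqp2, overlapped by another gene, was the 1 aquaporin that passed with NMDA and with age, from 0 in young to 1.19 to 2.96 CPM and 6.16 and 8.52 CPM.

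The dystrophin complex list had 12 of 13 genes tested. With NMDA, 4 were higher and 3 lower (median 0.03), and in RPC cells 1 was higher and 6 lower (median -0.82). In RPC cells Sntb1, a syntrophin gene, fell by 4.03 on the log2 scale. With NMDA, Utrn, the dystrophin relative utrophin, fell by 0.70 (adjusted p 0.0043), and Dtna, the dystrobrevin of the complex, fell by 0.64 (adjusted p 0.023). Dtnb, another dystrobrevin, rose from 10.6 and 9.72 CPM in young to 43.3 to 56.9 in NMDA (adjusted p 2.93e-05) and 52.5 and 57.6 in aged, and stood at 9.75 to 10.1 CPM in RPC libraries. Dmd, the dystrophin gene, had 0 counts in both young and all 3 RPC libraries and 149 to 207 CPM in NMDA and 206 and 208 in aged libraries. Of 24 ligands and glycosylation enzymes of dystroglycan, 20 were in the table and tested: 5 were higher and 5 lower with NMDA (median 0.00), and 3 higher and 9 lower in RPC cells (median -0.15). Lama1, a laminin chain, fell by 1.46 with NMDA (adjusted p 3.61e-05) and fell by 0.76 with age (adjusted p 0.0029). Agrn, the proteoglycan agrin, fell by 0.82 with NMDA (adjusted p 0.00023). Egflam, which encodes the dystroglycan ligand pikachurin, fell in RPC cells by 3.87 (adjusted p 5.79e-05).

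Of 14 other carbonic anhydrase genes 11 were tested, with 4 higher and 3 lower with NMDA (median 0.69) and 1 higher and 4 lower in RPC cells (median -1.31). Car5b, a mitochondrial form, fell by 6.20 in RPC cells (adjusted p 2.18e-07) and measured 56.0 and 83.7 CPM in young against 0.886 to 1.02 in RPC. Car11, a form without catalytic activity, fell by 4.73 there. The genes of this wider list called with NMDA were mostly low. Car6 measured 2.57 to 3.44 CPM in NMDA against 0 in young, at least 25.3-fold higher, and Car15 measured 4.57 to 7.87 CPM against 12.2 and 25.7.

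Among 16 tested acid-base transporters, 3 were higher and 2 lower with NMDA (median 0.34) and 2 higher and 6 lower in RPC cells (median -0.85). Slc16a1, a lactate and proton carrier, fell by 1.05 with NMDA (adjusted p 9.55e-05), from 483 and 434 CPM to 202 to 238. Bsg, its chaperone basigin, fell by 0.93 (adjusted p 0.0008). In RPC cells Slc16a1 fell by 2.63 and Bsg fell by 3.35. Slc4a8, a bicarbonate transporter, measured 3.39 and 11.2 CPM in young, 157 to 218 in NMDA, 286 and 306 in aged and 2.12 to 2.58 in RPC libraries. Slc4a1, the anion exchanger of red blood cells and one of the blood markers, was higher in RPC cells, at 203, 91.7 and 45.3 CPM.

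Sodium pump and cation-chloride cotransporter genes, 15 tested, had 4 higher and 5 lower with NMDA (median -0.14) and 2 higher and 11 lower in RPC cells (median -3.58). Atp1b2, a pump subunit of glia, fell by 4.92 in RPC cells (adjusted p 9.22e-08) and changed with NMDA by -0.21 (interval -0.51 to 0.10, adjusted p 0.24).

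Of 12 cell volume genes, 4 were higher and 4 lower with NMDA (median 0.16), and 3 higher and 5 lower in RPC cells (median -0.26). Trpv4, a channel gated by cell swelling, fell by 1.43 with NMDA (adjusted p 0.011), from 41.3 and 25.4 CPM to 11.97 to 12.6, and fell by 6.94 in RPC cells. Wnk2, a kinase that acts on these cotransporters, fell by 1.32 with NMDA (adjusted p 0.0022). Lrrc8d, a subunit of volume-regulated anion channels, rose with NMDA from 10.8 and 3.05 CPM to 28.4 to 45.6 (adjusted p 0.0039).

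With age, genes called higher were 3 of 8 other inward rectifiers, 1 of 7 aquaporins, 4 of 12 of the dystrophin complex, 5 of 20 dystroglycan partners (with 3 lower), 2 of 11 carbonic anhydrases, 2 of 16 acid-base transporters, 4 of 15 pump genes and 3 of 12 cell volume genes. These lists are read against the shares of all genes given for the members. The vascular, inner neuron, pigment, astrocyte and microglia markers called higher with NMDA and with age stand beside them, as do the lens markers called higher with NMDA. Kcnj13, Aqp2, Aqp5, Dmd, Dtnb, Utrn, Agrn, Egflam, Car5b, Slc4a8 and Lrrc8d have spans overlapped by another annotated gene, so their counts are uncertain. Over the whole table, genes with overlapped spans were called higher than young more often than others, 36.4% against 26.5% with NMDA and 27.8% against 14.7% with age. In RPC against young cells the shares called higher were 35.9% and 36.9%. Overlapped genes were also called lower in RPC more often than others, 34.3% against 25.5% versus aged and 37.2% against 29.8% versus NMDA cells. The part of counting in these calls was not tested.

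In RRBS, positions were tested where all 12 libraries had at least 10 reads. Each strand of a CpG counts as a position. Within the members and 2000 bases either side, 220 positions were shared and 215 tested: 43 at Kcnj10, 28 at Kcnj2, 14 at Aqp4, 75 at Dag1, 48 at Car2 and 7 at Car14. Kcnj16 had none. A call needed an adjusted p under 0.05 from a quasi-binomial model over 718061 positions and a difference of at least 10 percentage points. In RPC against young cells 29 of 215 member positions were called (27 higher, 2 lower), 13.5% against 7.52% of all positions (4.81% higher, 2.71% lower). With NMDA 12 were called (8 higher, 4 lower), 5.58% against 3.17% (2.08% higher, 1.09% lower). With age 13 were called (3 higher, 10 lower), 6.05% against 4.04% (0.448% higher, 3.59% lower). NMDA against aged gave 2 member calls, both higher, against 0.729% of all positions (0.712% higher, 0.0164% lower). RPC against aged gave 31 (29 higher, 2 lower), against 6.67% (4.92% higher, 1.75% lower), and RPC against NMDA gave 22 (18 higher, 4 lower), against 4.58% (2.41% higher, 2.18% lower). Neighbouring positions share reads and are not replicates.

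Kcnj10 held 13 of the 27 positions called higher and 1 of the 2 called lower in RPC. Positions under 500 bases apart were averaged per library, a grouping chosen after seeing the data. The 4 positions between 1390 and 1684 bases past the start averaged 8.03%, 14.2% and 7.31% methylated in young, 42.8%, 19.6% and 34.9% in NMDA, 3.33%, 3.11% and 4.78% in aged, and 93.8%, 89.1% and 86.0% in RPC libraries (median coverage 76). No groups overlapped, in the order aged, young, NMDA, RPC, and each pair gave an exact two-sided permutation p of 0.1, the smallest that 3 against 3 libraries allow. The position at chromosome 1, 172342894 went from 5.79% of pooled reads in young to 91.4% in RPC (adjusted p 7.13e-06) and to 43.9% in NMDA (adjusted p 0.012). At 172342622 it was 3.63% in young, 87.0% in RPC (adjusted p 5.2e-06) and 24.5% in NMDA (adjusted p 0.024).

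Nearer the start, 17 positions 147 to 525 bases downstream averaged 3.96% to 7.99% in young, 4.46% to 9.87% in NMDA, 1.32% to 3.99% in aged and 16.9% to 21.6% in RPC libraries. The promoter printed above was not covered in all libraries. Where it was listed, pooled methylation was 3.56% in young (24 positions) and 0% in NMDA (8 positions, 1 library). It was 0.121% in aged (29 positions, 2 libraries) and 2.62% in RPC (16 positions). In RPC libraries the 10 downstream positions nearest the start, at 147 to 234 bases, were also low, at 0.820% to 9.43% of pooled reads. The next, at 294 bases, was 10.5%, and the 6 from 321 to 525 bases were 14.6% to 79.0%. The last of the 17, at 172341735, was 13.2% in young and 79.0% in RPC (adjusted p 1.23e-07), and was chosen after its values were seen.

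Further into the gene, 3 positions 8698 to 8854 bases from the start averaged 33.8%, 19.3% and 34.5% in NMDA and 0% to 8.68% in all other libraries (median coverage 29.5). The 5 positions 15752 to 15994 bases from the start averaged 41.4%, 47.5% and 31.8% in young, 80.8%, 64.8% and 75.2% in NMDA, 51.3%, 50.7% and 50.7% in aged and 81.1%, 78.5% and 86.1% in RPC libraries. Among them the position at 172356962 was 13.9% in young, 78.0% in NMDA (adjusted p 0.0084), 19.1% in aged and 94.0% in RPC (adjusted p 1.33e-05). Beside it, 172357015 was 47.0% in young, 86.9% in NMDA (adjusted p 0.021) and 74.4% in aged (adjusted p 0.048). Its NMDA call was lost without NMDA replicate 1 (adjusted p 0.070) or 3 (0.084), and its aged call without any 1 aged library (0.093 to 0.15) and without young replicate 1 (0.092) or 3 (0.10). The position at 172369432, in the last group, was 54.9% in young, 86.9% in NMDA (adjusted p 0.035), 89.1% in aged (adjusted p 0.018) and 86.7% in RPC (adjusted p 0.0028), and its aged call was lost without aged replicate 1 (0.062) or 2 (0.068). In NMDA cells, then, Kcnj10 had 7 positions called higher while its RNA did not differ beyond the interval given above. The 12 member positions called with NMDA became 4, 6 and 2 without NMDA replicates 1, 2 and 3, all of them higher, so that none of the 4 lower calls, at Kcnj2 and Car2, held in any of those fits. The 13 called with age became 8 without aged replicate 1 and 8 without aged replicate 3.

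**Figure D3:**
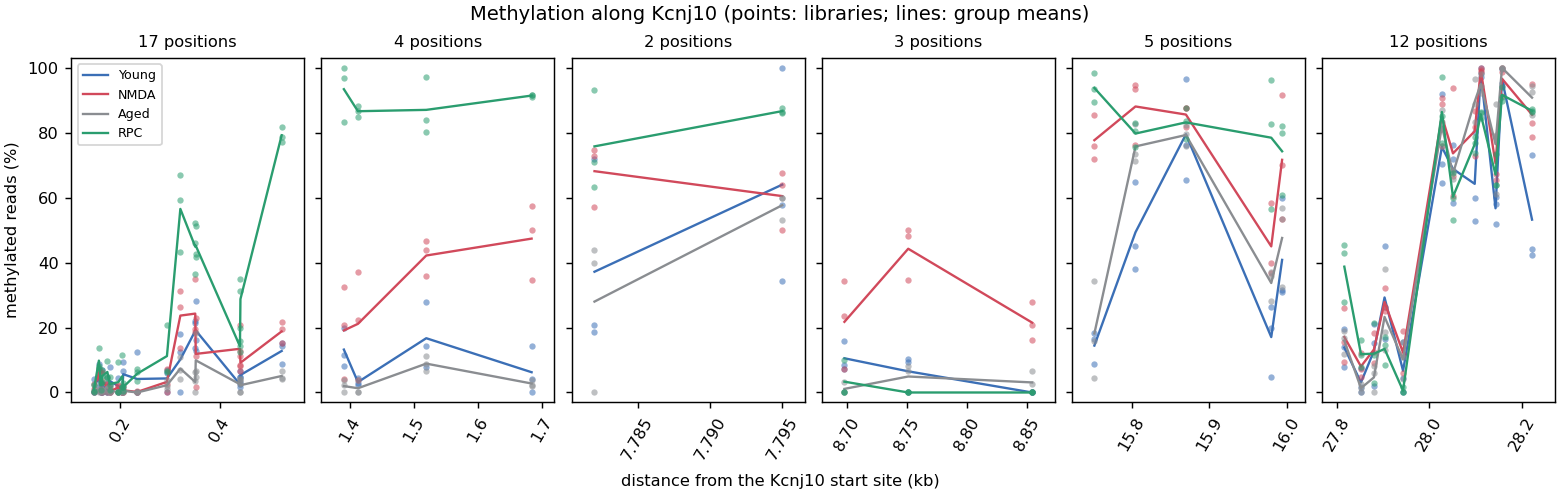
Percent of methylated reads at Kcnj10 positions against distance from the start in kilobases, in 6 groups of neighbouring positions; points are libraries (3 a group) and lines group means of Young, NMDA, Aged and RPC. The RPC line has the highest mean in the first 3 panels, at 89.6% in the second, and the NMDA line stands alone in the fourth, at 29.2% on average.

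Car2 carried the other block. Because its strand was not given in the annotation, distances are from its lower coordinate. The 12 positions 1609 to 1841 bases inside averaged 6.17%, 7.76% and 5.32% in young, 1.77%, 5.07% and 2.89% in NMDA, 0.310%, 0.814% and 0.973% in aged and 28.9%, 37.9% and 26.3% in RPC libraries. Of these, 10 were called higher in RPC. At chromosome 3, 14887985 the pooled level went from 1.32% in young to 44.3% in RPC (adjusted p 0.00013), and at 14888082 from 4.29% to 43.4% (adjusted p 0.0096). The neighbouring 37 positions, 233 to 756 bases inside, averaged 0.245% to 4.11% in every library. The position at 14887878 was lower with NMDA (3.91% against 21.5% in young, adjusted p 0.033) and with age (3.28%, adjusted p 0.0043), and 14888110 with age (1.45% against 14.2%, adjusted p 0.0018). The position at 14886882 was lower with NMDA (2.97% against 22.8%, adjusted p 0.038). Both NMDA calls were lost without any 1 NMDA library, with adjusted p from 0.083 to 0.16 at 14887878 and from 0.11 to 0.14 at 14886882, and at 14887878 also without young replicate 3 (0.056).

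At Aqp4, 3 positions were called higher in RPC. A pair of positions 17461 and 17580 bases from the lower coordinate averaged 10.9%, 13.0% and 7.15% in young, 12.2%, 9.17% and 7.70% in NMDA, 0% to 2.46% in aged and 55%, 56.6% and 39.4% in RPC libraries. The first of the pair was 2.44% in young and 55.3% in RPC (adjusted p 0.00019). The second was 18.1% in young and 2.24% in aged (adjusted p 0.013). A second group, 12 positions 13881 to 14276 bases in, averaged 8.26% to 11.2% in young, 11.7%, 18.1% and 29.4% in NMDA, 8.88% to 13.3% in aged and 17.8% to 20.2% in RPC libraries, so the NMDA libraries spread widely. At 13885 bases the level was 12.7% in young and 58.0% in RPC (adjusted p 0.012, and 0.088 without RPC replicate 2). The last position was lower with age (2.02% against 12.4%, adjusted p 0.023), a call lost without aged replicate 1 (0.085) or 3 (0.088) and, by its size, without young replicate 3 (-9.50 points).

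The start regions of Kcnj2 and Dag1 were low in methylation in all groups. The 30 Kcnj2 positions from -583 to 267 bases relative to the start averaged 5.32%, 4.78% and 3.93% in young, 0.361%, 0.881% and 0.862% in NMDA, 0.347% to 0.486% in aged and 0.7502%, 2.41% and 1.59% in RPC libraries. The position at chromosome 11, 111065797 was 19.3% in young, 1.28% in NMDA (adjusted p 0.038) and 3.10% in aged (adjusted p 0.012), and 111066242 was 12.1% in young, 0.295% in NMDA (adjusted p 0.017) with an aged difference of -12.1 points (adjusted p 0.0016). Both aged calls held without any 1 library, and both NMDA calls were lost without any 1 NMDA library, with adjusted p from 0.0998 to 0.15 and from 0.061 to 0.083. The 70 Dag1 positions around the start averaged 2.42% to 3.49% in young, 0.621% to 1.10% in NMDA, 0.195% to 0.532% in aged and 0.744% to 1.70% in RPC libraries. At chromosome 9, 108264048 the level was 24.9% in young, 3.45% in aged (adjusted p 0.003) and 9.84% in RPC (adjusted p 0.023), and at 108263823 it was 12% in young and 0.739% in aged (adjusted p 0.022). The RPC call at 108264048 was lost without any 1 RPC library (0.054 to 0.062) or young replicate 3 (0.067), and the aged call at 108263823 without aged replicate 1 (0.074) or 3 (0.088) and, by its size, without young replicate 2 (-8.08 points). Young libraries were higher over all promoters too. There the reference's promoter entries were taken whole, from 250 bases before the start, and held 90007 shared positions. Their mean was 3.96% to 4.81% in young and 1.71% to 3.27% in other libraries, and the part of this shift in the member values was not tested. Inside Dag1, 7 positions 12806 to 12982 bases from the start averaged 83.9% to 98.7% in all libraries, and the one at 108250976 was called higher in RPC (97.0% against 72.8%, adjusted p 0.0081).

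Car14 had few shared positions, 4 of them from -715 to -581 bases relative to the start, at a library mean of 1.79% to 13.0% in every group. One, at chromosome 3, 95905356, was 2.62% in young and 15.1% in NMDA (adjusted p 0.049), a call lost without any 1 NMDA library (adjusted p 0.078 to 0.22) or young replicate 1 (0.055).

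**Figure D4:**
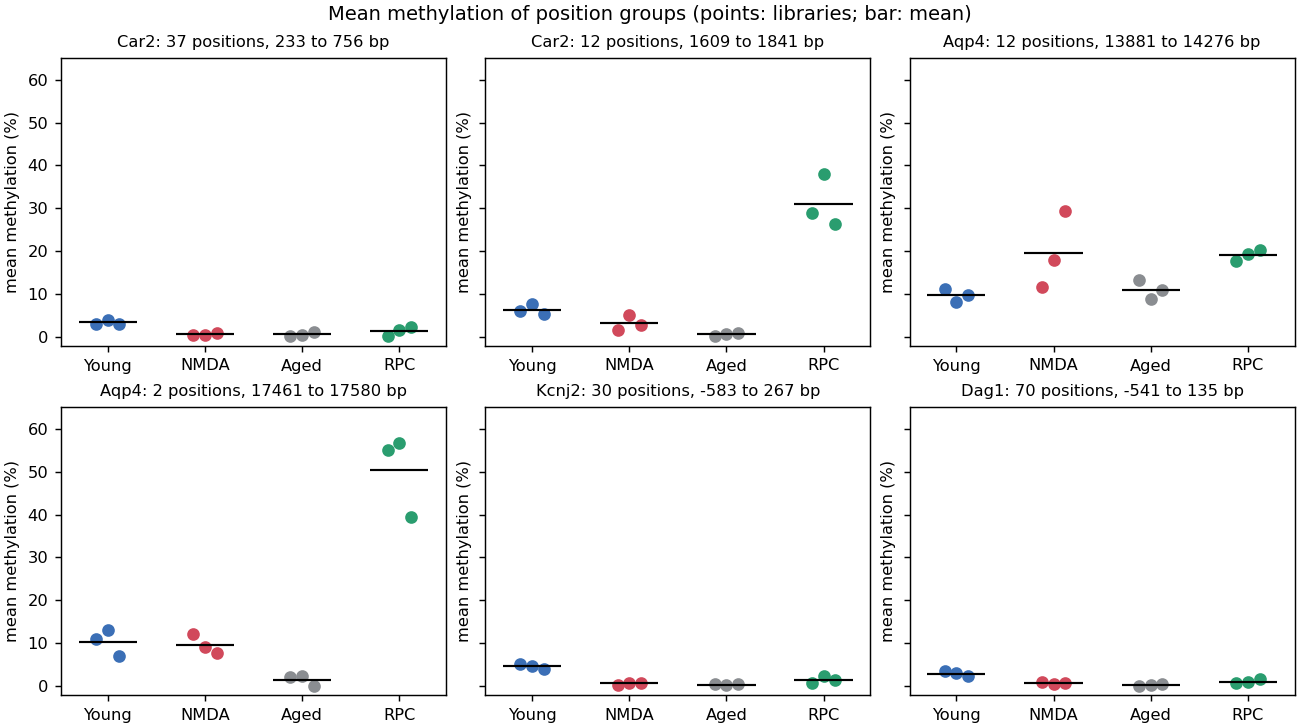
Mean methylation in percent of groups of positions at Car2, Aqp4, Kcnj2 and Dag1, 1 point per library and a bar at the mean, by group (3 libraries each); distances in bp are from the lower gene coordinate for Car2 and Aqp4 and from the start for Kcnj2 and Dag1. RPC libraries stand at 26.3% to 37.9% in the second Car2 panel and at 39.4% to 56.6% in the second Aqp4 panel, above all other groups.

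Reading the 2 assays side by side, in RPC against young cells Kcnj10, Aqp4 and Car2 had lower RNA and positions called higher in methylation inside the gene. Kcnj10 also had 1 position called lower. Dag1 and Car14 had lower RNA, with 1 higher and 1 lower position at Dag1 and no call at 7 tested positions of Car14. Kcnj2 had higher RNA and no call at 28 tested positions. With NMDA, Kcnj10 had 7 positions called higher and no RNA change that passed. The RNA and RRBS libraries carry no label that ties them to the same animals, so no relation across libraries was computed.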

How the data were processed

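The deposited RNA values were counts per gene, made by the authors from reads; how they were counted, and whether by strand, is not given in the sources used here. Per the file headers, the deposited RRBS values were the percent of methylated and unmethylated reads and the coverage at each CpG position, listed from 10 reads up. The builds mm10 and GRCm38 and the tools Bismark 0.16.3, HISAT2 2.0.4, methylKit 1.4.0 and Trim Galore 0.4.3 are named in the submitters' processing notes.

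One edgeR 4.0.16 fit (R 4.3.3) took the counts of all 10 libraries (TMM, filterByExpr, quasi-likelihood, 6 residual degrees of freedom) and adjusted by Benjamini-Hochberg over 18931 genes. DESeq2 1.42.0 was an alternative. Against a group at 0, folds used 3 counts over its pooled libraries. For RRBS a quasi-binomial model of the reads at each autosomal position was fitted in Python 3.11.15 with moderated dispersion (prior 1.86, on 4.16 degrees of freedom); coverage of shared positions had a library median of 52 to 109. Both models were run on simulated data in which all groups had the same spread. In the real RNA the young pair correlated less than other pairs, so error rates in these data were not measured. A library mean of 0% is limited by its coverage. RefSeq starts were used for windows, and the lower gene coordinate for Car2 and Aqp4, which had no listed start. All 104 measured promoter positions checked had the expected base on GRCm38.p6.

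Members and lists were chosen with earlier results of these data known. Named were all members, up to 2 called genes per wider list, direction and comparison with young by smallest adjusted p, Rlbp1, Glul and Gfap, the 3 genes most like each member, and per member and comparison up to 2 called positions with the largest difference; not all of these are printed, and some genes are not reported here. Kcnj12 and 1 Kcnj10 position lie outside that rule. Alternatives were other scaling, filters, fits of 2 groups, a replicate block, other thresholds and each library left out. TMM factors from genes free of overlap were added after seeing the data. Intervals and floors on counts cover counting error only.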

Additional observations from a re-analysis of the deposited data

How the results depend on the processing

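No member change that was called turned direction. Of 462 alternative values of member RNA changes, 434 kept their side of the threshold, 19 lost and 9 gained a call. Members called with NMDA went from 3 to 5 under upper-quartile scaling and 5 under DESeq2, and from 2 to 4 with 1 library left out. With age they went from 1 to 0 with a filter at a mean of 5 CPM, where Kcnj2 was not tested, to 0 in a fit of the 2 groups alone and to 2 under DESeq2, and stayed at 1 with any library left out. For NMDA against aged cells they ranged from 0 to 3 with 1 library left out; the count was 0 without aged replicate 1 and 0 without aged replicate 2. In RPC cells the counts were 6, 5 and 5 against young, aged and NMDA cells whichever library was left out.

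At 25 points and an adjusted p under 0.01, member positions called were 1 with NMDA, 0 with age and 17 in RPC cells. With no minimum difference they were 24, 65 and 52. With 1 library left out they ranged from 2 to 15, from 8 to 16 and from 22 to 33. The cause of these shifts was not tested.

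Same-numbered libraries correlated between -0.06 and 0.088 in RNA and between -0.035 and 0.042 in RRBS. Differently numbered RNA libraries ran from -0.085 to 0.06, so the numbers gave no sign of pairing. A correlation over all genes cannot exclude pairing. With the replicate number as a block, members called for NMDA against aged cells went from 3 to 0, and member positions called were 14 with NMDA, 16 with age and 35 in RPC cells, against 12, 13 and 29.

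Young and aged RNA groups have 2 libraries each, low counts limit Kcnj2 and Kcnj16, and 0 of the Kcnj10 promoter CpGs were covered in all libraries.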
